A study of Homo sapiens with 9 samples.

Results

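The 37 genes described here encode the lysosomal proton pump, the Ragulator complex with its Rag GTPases, and a selection of lysosomal proteins with their transcription factor TFEB, measured in SW1783 glioma cells after transfection with either form of miR-376a*. Each gene was represented by its brightest probe set annotated to that gene alone. Of the 37 genes, 35 could be measured this way, 16 of 17 in the proton pump, 7 of 8 in Ragulator and Rag and 12 of 12 among the lysosomal proteins, out of 12505 genes tested. ATP6V1F and LAMTOR1 were not analysed here. All 35 measured members passed the filter on dim probe sets.

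Lysosomes are acidic organelles in which proteases, lipases and glycosidases digest material from endocytosis and autophagy. The vacuolar proton pump (V-ATPase) acidifies them: its V1 sector hydrolyses ATP in the cytosol, its V0 sector carries protons across the membrane, and VMA21 is needed in the endoplasmic reticulum to assemble V0. Ragulator, made of the LAMTOR proteins, anchors the Rag GTPases to the lysosomal surface, where they recruit the growth kinase complex mTORC1 when amino acids are available. TFEB is a transcription factor of lysosomal genes that binds the E-box CACGTG.

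SW1783 is an established human glioma line. Cells of all 3 groups received a synthetic miRNA duplex at 50 nM with the reagent Lipofectamine RNAiMAX and were harvested after 24 h. The groups were miR-376a*A (the unedited sequence, called the A form here), miR-376a*G (the G form, in which G stands in for the inosine left by A-to-I editing of 1 base of the seed) and miR-control, with 3 arrays from biological replicates in each. The labels state the purpose as finding the genes changed by each form against the control; the 2 forms were also set against each other. The duplexes were added to 1 cell line, so the values describe this line at this dose and time. No group went without a duplex, so an effect of the control duplex itself was not tested. Genes said to rise or fall did so relative to the control arrays, unless the other form is named.

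The seed of a miRNA, bases 2 to 8 from its 5′ end, pairs with target messages and is the part in which the 2 forms differ. The mature sequence that RefSeq (GRCh38.p14, chr14:101040788-101040809, plus strand) gives for the unedited miRNA is shown here with the seed in capitals, because the groups compared differ within it.

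hsa-miR-376a-5p: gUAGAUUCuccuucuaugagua

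The arrays had median signals of 18.8 to 24.0. Control replicate 1 stood apart: its highest rank correlation with any other array was 0.941, against 0.969 to 0.970 for the other 8 arrays, and its brightest probe set had a signal of 7191, against 3601 to 4374. It was the highest or the lowest of the 9 arrays for 21 of the 35 members, and for 63.4% of all genes. The calls of members are therefore given with and without it, and most results of related genes with all 9 arrays only. Of the glial and mesenchymal markers, VIM (2218 to 4401) and CD44 (2116 to 3105) were bright in every array. SOX2 passed the filter with 10.3 to 29.5, whereas NES, GFAP and S100B did not, with highest signals of 21.7, 3.75 and 2.64. Of the markers of other cell types, the brightest probe sets of PECAM1 (57.2 to 125), MBP (40.0 to 77.9) and RBFOX3 (15.9 to 32.5) passed the filter, and those of PTPRC, CD14 and EPCAM did not. Their part in any result was not tested.

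With the A form, 4 of the 35 members passed the test against control (11.4%, where 3.33% of all genes tested passed): LAMTOR3 and TMEM106B rose, and VMA21 and RRAGC fell. With the G form, 2 of 35 passed (5.71%, against 4.62% of all genes): LAMTOR3 and TMEM106B, both higher than in the same control arrays. Between the 2 forms 2 of 35 passed (5.71%, against 2.63% of all genes): VMA21 and TMEM106B were both lower with the A form. Both comparisons with control share the control arrays. The members were chosen with earlier results of these data known. Their shares beside those of all genes are therefore no test of enrichment. Passing means a limma p of at most 0.05 after Benjamini-Hochberg adjustment over all genes, and differences are on the log2(signal + 16) scale after quantile normalization. The arrays of the 2 groups did not overlap for 9 members with the A form against control, for 7 with the G form against control and for 9 between the forms. These are shares of 25.7%, 20.0% and 25.7%, against 20.5%, 21.7% and 29.5% of all genes.

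**Figure D1:**
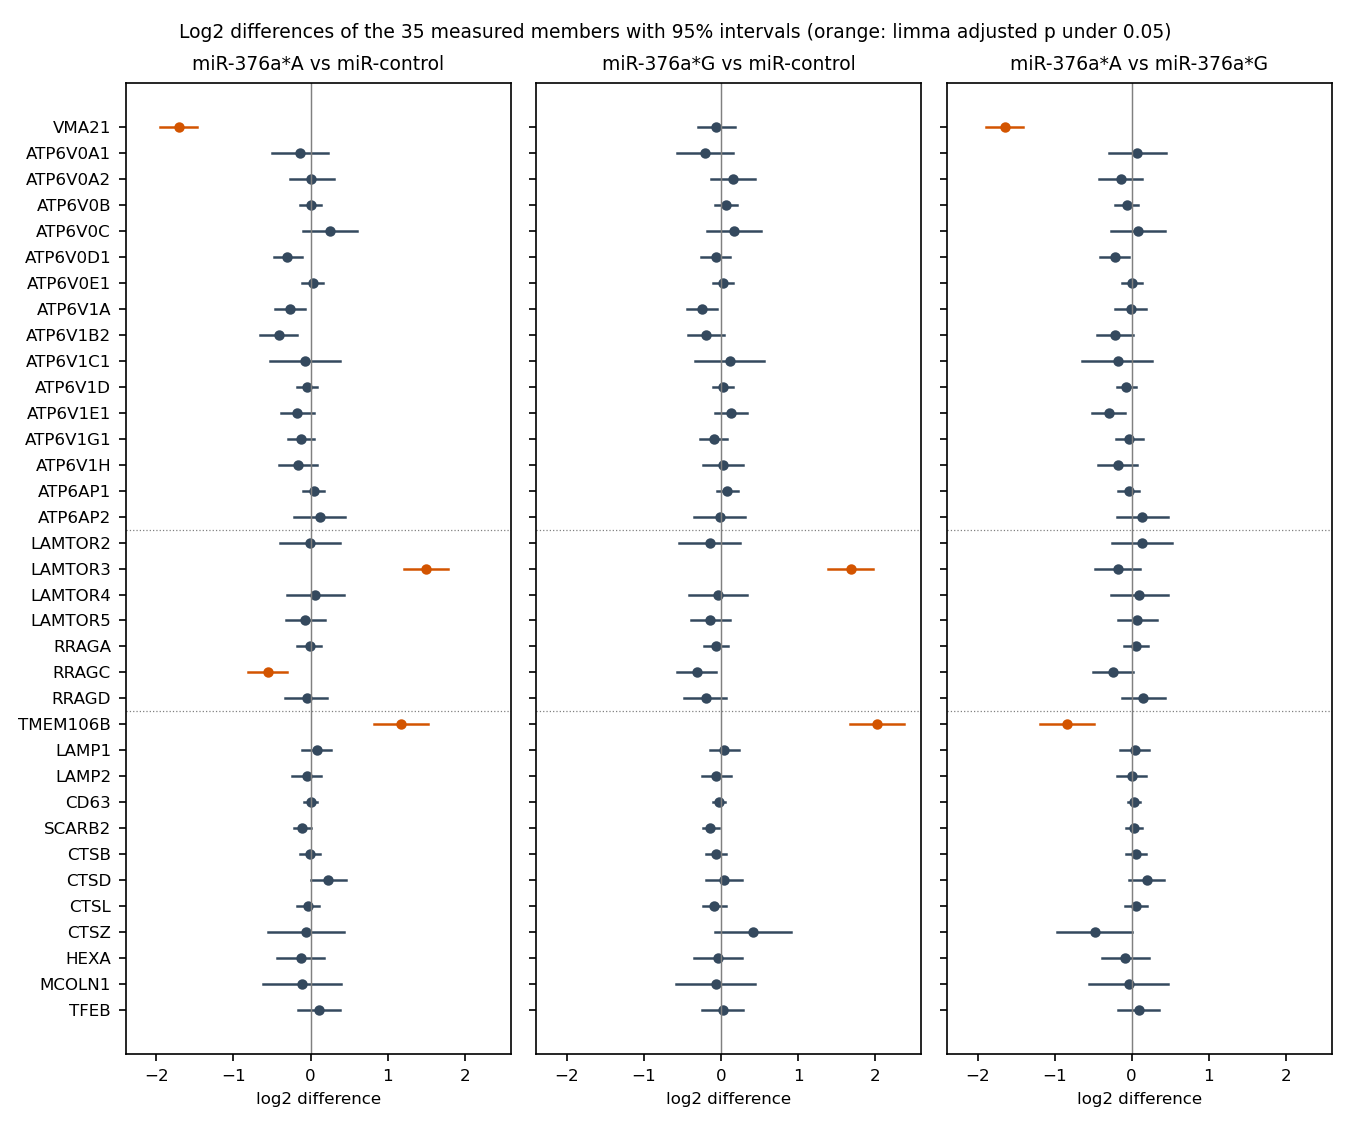
Log2 differences of the 35 measured members (points) with 95% intervals from limma (bars) in the 3 comparisons; dotted lines part the proton pump, the Ragulator and Rag genes and the lysosomal proteins, and orange marks an adjusted p under 0.05. LAMTOR3 and TMEM106B stand above 0 in both comparisons with control, VMA21 lies below 0 in the 2 comparisons that involve miR-376a*A, and most other members lie close to 0.

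The proton pump as a group showed a single call. With the A form, 0 of its 16 genes were higher and 1 was lower, with a median difference of -0.10, against a median of 0.01 over all genes tested. With the G form 0 of 16 passed in limma, with a median of 0.02 (0.01 over all genes). An unadjusted limma p under 0.05 was found for 1 of the 16, against 2232 of all 12505 genes. Between the forms 1 of 16 was lower with the A form, with a median of -0.07 (0.00 over all genes). The 1 of 16 is 6.25%, against 3.33% of all genes with the A form and 2.63% between the forms. Without control replicate 1, 1 of 16 was higher and 3 were lower with the A form, where 13.4% of all genes passed. Between the forms 2 were then lower with the A form (9.72% of all genes), and 0 passed in limma with the G form (17.0%).

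The gene called was VMA21, the assembly factor. Its signal was 357, 377 and 373 with the A form, 1143, 1172 and 1179 with the G form, and 1162, 1153 and 1345 in control cells. The 3 A-form arrays lay far below the other 6, and the arrays of the G form and control overlapped. VMA21 was 3.27-fold lower with the A form than in control (log2 -1.71, SE 0.11, limma adjusted p = 2.30e-05) and 3.13-fold lower than with the G form (-1.65, SE 0.11, adjusted p = 4.51e-05). Between the G form and control the difference was -0.06, with a 95% interval of -0.30 to 0.18. The fall rests on 1 probe set: another, dim one with signals of 13.7 to 34.0 over the 9 arrays gave 0.09 (SE 0.19, adjusted p = 0.867 over all probe sets). The dimmest of its 3 probe sets, below the filter, gave -0.02.

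By their brightest probe sets, the V0 and V1 subunits and the 2 accessory proteins did not pass in any of the 3 comparisons with all 9 arrays. Their differences ran from -0.41 (ATP6V1B2) to 0.25 (ATP6V0C) with the A form and from -0.25 (ATP6V1A) to 0.17 (ATP6V0C) with the G form, and all their 95% intervals lay within -0.65 and 0.60. A change of 2-fold thus lay outside the interval of each of these genes. ATP6V1B2, a subunit of the ATP-hydrolysing head, had signals of 632, 617 and 616 with the A form, 703, 646 and 822 with the G form and 756, 824 and 873 in control cells. The A-form arrays were below all others for this gene (-0.41 against control, SE 0.11, adjusted p = 0.0729).

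Of the other V0 genes, ATP6V0D1 was at -0.30 with the A form (adjusted p = 0.0942), with 1026 to 1130 against 1224 to 1600 in control, so that these groups did not overlap. The proton-carrying ring subunit ATP6V0C ranged from 644 to 1183 within the control arrays alone. Standard errors of the pump genes ran from 0.06 to 0.20. The renin receptor ATP6AP2 and its fellow accessory protein ATP6AP1 were at 0.12 and 0.04 with the A form and at -0.02 and 0.08 with the G form.

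In Ragulator and the Rags, 1 of 7 genes rose and 1 fell with the A form (median -0.01). With the G form 1 of 7 rose (median -0.14). Between the forms 0 of 7 passed in limma (median 0.07), and 0 had an unadjusted p under 0.05, against 1336 of all 12505 genes. LAMTOR3, also known as MP1, a scaffold that binds a MAP kinase module and forms a pair with LAMTOR2, was the gene that rose. Its signal was 70.6, 94.9 and 95.7 in control cells, 245, 287 and 277 with the A form, and 324, 277 and 333 with the G form. Every treated array lay above every control array, and the 2 treated groups overlapped.

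LAMTOR3 was 2.82-fold higher with the A form than in control (log2 1.50, SE 0.13, limma adjusted p = 0.000223) and 3.20-fold higher with the G form (1.68, SE 0.13, adjusted p = 0.000172). Between the forms the difference was -0.18, with a 95% interval of -0.47 to 0.11. A dimmer probe set, below the filter and not tested against the threshold, had 3.53 to 7.16 in control, 20.9 to 25.4 with the A form and 25.1 to 32.5 with the G form. Its partner LAMTOR2 did not pass: it was at -0.01 with the A form and at -0.15 with the G form, with intervals of -0.40 to 0.38 and -0.54 to 0.24. LAMTOR4 (0.06 and -0.04) and LAMTOR5 (-0.07 and -0.14), the other 2 Ragulator subunits measured, did not pass either.

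RRAGC, a Rag GTPase that pairs with RRAGA, was lower with the A form. Its signal was 649, 649 and 688 with the A form, 796, 714 and 823 with the G form, and 1317, 875 and 856 in control cells. The A-form arrays lay below all others, and control replicate 1 lay far above the other controls. The difference from control was -0.55 (SE 0.11, limma adjusted p = 0.0278), a fall of 1.47-fold, and without control replicate 1 it was -0.41 (adjusted p = 0.00302). With the G form it was -0.31 (adjusted p = 0.177) and between the forms -0.24 (adjusted p = 0.510).

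A second probe set of RRAGC had signals of 485, 511 and 536 with the A form, 661, 668 and 696 with the G form, and 735, 716 and 710 in control cells, with control replicate 1 close to the other controls. When every probe set was tested, it was lower with the A form than in control (-0.50, SE 0.07, adjusted p = 0.00673) and than with the G form (-0.40, SE 0.07, adjusted p = 0.0255). The call of the brighter probe set against control was lost when any A-form array was left out (adjusted p = 0.103 to 0.130), when G-form replicate 1 or 2 was left out (0.0591 and 0.0531), with arrays centred on their medians (0.114), without normalization (0.0893) and with only the 6 arrays compared (0.109). RRAGA (-0.01 and -0.07 with the 2 forms) and RRAGD (-0.05 and -0.20) did not pass.

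**Figure D2:**
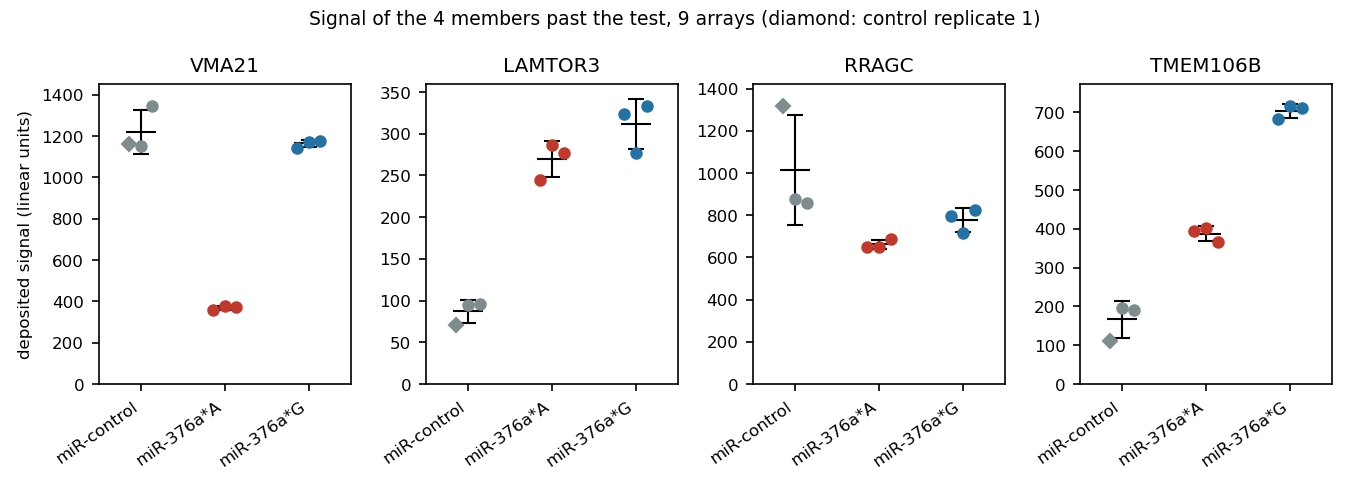
Deposited signal (linear units, axis from 0) of VMA21, LAMTOR3, RRAGC and TMEM106B in each of the 9 arrays, with the mean and SD of each group of 3 as bars and control replicate 1 as a diamond. VMA21 is low in the miR-376a*A arrays alone, LAMTOR3 is high in both treated groups, and TMEM106B lies at 111 to 197 in control, 365 to 402 under miR-376a*A and 684 to 716 under miR-376a*G.

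Among the lysosomal proteins and TFEB, 1 of 12 genes rose with each form and 0 fell, with medians of -0.02 and -0.03. Between the forms 1 of 12 was lower with the A form, with a median of 0.03. The gene was TMEM106B in all 3 comparisons, a lysosomal membrane protein with known roles in the size and transport of lysosomes. Its signal was 111, 197 and 192 in control cells, 395, 402 and 365 with the A form, and 684, 716 and 711 with the G form. The 3 groups did not overlap, with control lowest and the G form highest.

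TMEM106B was 2.27-fold higher with the A form than in control (log2 1.18, SE 0.16, limma adjusted p = 0.00259) and 4.06-fold higher with the G form (2.02, SE 0.16, adjusted p = 0.000172). It was 1.79-fold lower with the A form than with the G form (-0.84, SE 0.16, 95% interval -1.19 to -0.49, adjusted p = 0.0195). Without control replicate 1, the lowest control array for this gene, the 3 differences were 0.98, 1.81 and -0.83, with adjusted p of 1.51e-05, 4.60e-07 and 2.47e-05. The difference between the forms no longer passed when any of the 6 treated arrays was left out (adjusted p = 0.0755 to 0.109) or with arrays centred on their medians (0.0761).

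The other 2 probe sets of TMEM106B above the filter gave 1.37 and 1.02 with the A form and 1.95 and 1.57 with the G form, each past the test over all probe sets (adjusted p of 9.56e-05 to 0.00521). Between the forms they gave -0.58 (adjusted p = 0.293) and -0.55 (adjusted p = 0.0426). The dimmest of its 4 probe sets, below the filter, gave 0.06 and 0.49 against control. For VMA21 the fall was seen in 1 of 3 probe sets. The other 2 were dim, with signals of at most 34.0 in any array, so they say little about it.

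**Figure D3:**
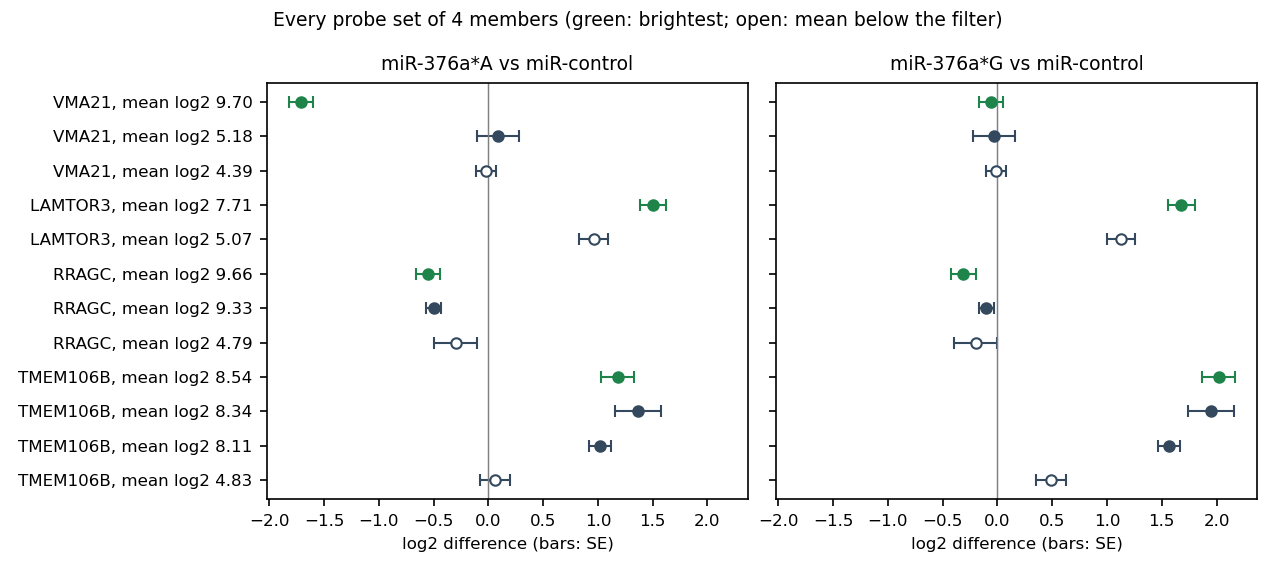
Log2 difference from control of every probe set of the 4 members past the test, with miR-376a*A (left) and miR-376a*G (right); bars are SE, green marks the brightest probe set and open circles those whose mean lies below the filter. The 3 brighter probe sets of TMEM106B and both of LAMTOR3 lie above 0 with either form, and 1 of 3 probe sets of VMA21 lies far below 0 with miR-376a*A.

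The remaining 11 lysosomal genes did not pass with all 9 arrays. LAMP1 and LAMP2, abundant proteins of the lysosomal membrane, were at 0.08 and -0.05 with the A form and at 0.04 and -0.06 with the G form. A dimmer LAMP2 probe set gave 0.51 (adjusted p = 0.120 over all probe sets) and 0.34 (adjusted p = 0.267) with the 2 forms. Its signals were 240 to 288 in treated arrays and 135 to 232 in control. The remaining LAMP2 probe sets gave 0.10 and 0.26 with the A form and 0.04 and 0.03 with the G form. The tetraspanin CD63 was at 0.00 and -0.03 (SE 0.04), with intervals of -0.08 to 0.08 and -0.11 to 0.05, the narrowest of the members. Its signals of 4947 and 2728 in control replicates 1 and 2 became log2 11.53 and 11.56 after normalization. The narrow intervals of CD63 thus leave out that spread of the deposited signal. The proteases CTSB (-0.01 and -0.07) and CTSL (-0.03 and -0.09) and the beta-hexosaminidase subunit HEXA (-0.12 and -0.04) were also close to 0. SCARB2, the receptor that carries glucocerebrosidase to lysosomes, was at -0.11 and -0.14, with all treated arrays below all controls after normalization (adjusted p = 0.331 and 0.149).

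The aspartic protease CTSD had signals of 207, 211 and 199 with the A form, 184, 171 and 183 with the G form and 175, 173 and 168 in control cells. The A-form arrays lay above all others (0.23 against control, SE 0.10, adjusted p = 0.319). The protease CTSZ varied widely between arrays: it ran from 196 to 339 in control, 214 to 317 with the A form and 263 to 411 with the G form, and its difference between the forms was -0.48 with an interval of -0.97 to 0.01. The calcium channel MCOLN1 ranged from 75.9 to 162 within the controls and was at -0.11 and -0.07. TFEB was at 0.11 with the A form and 0.02 with the G form, with intervals of -0.16 to 0.38 and -0.25 to 0.29.

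Over the 37 other probe sets of members that passed the filter, 4 passed with the A form against control when each probe set was tested (2.81% of all probe sets passed). These were both of TMEM106B, 1 of RRAGC and 1 of ATP6V1C1, a V1 stalk subunit. With the G form against control 2 passed, both of TMEM106B (3.76% of all probe sets), and between the forms 2 passed, of RRAGC and TMEM106B (2.04%). The ATP6V1C1 probe set had 144 to 163 with the A form against 184 to 263 in control (-0.54, SE 0.11, adjusted p = 0.0445). The brightest probe set of that gene gave -0.07 (SE 0.20) with all arrays: control replicate 1 was at 395, against 766 and 742 in the other controls.

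Without control replicate 1, 8 of the 35 members passed with the A form against control (13.4% of all genes passed then), 4 higher and 4 lower. ATP6V0C (0.42, adjusted p = 0.0269) and CTSD (0.29, adjusted p = 0.0369) were then higher, and ATP6V1B2 (-0.47, adjusted p = 0.00837) and ATP6V1C1 (-0.35, adjusted p = 0.0247) were lower, besides the 4 members named above. With the G form the same 2 members passed, LAMTOR3 (1.58, adjusted p = 5.04e-06) and TMEM106B, where 17.0% of all genes passed. Between the forms 4 of 35 passed (9.72% of all genes), all lower with the A form: VMA21 (-1.62), TMEM106B (-0.83), ATP6V1E1, a V1 stalk subunit (-0.29, adjusted p = 0.0282), and RRAGC (-0.24, adjusted p = 0.0363). The limma fit without this array has 2 control arrays.

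**Figure D4:**
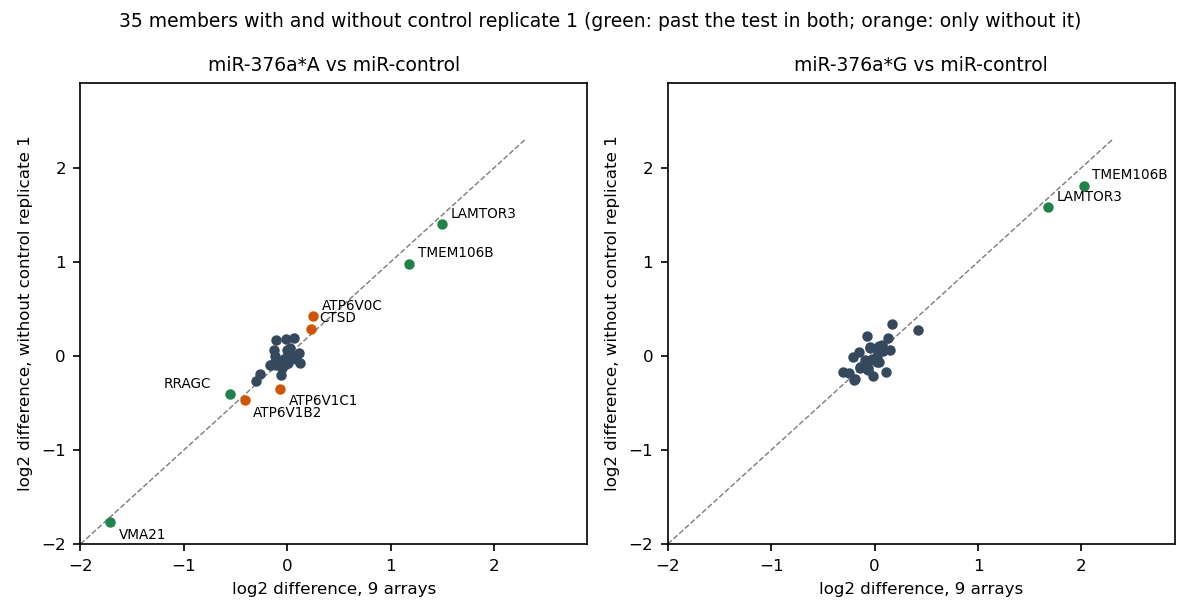
Log2 difference from control of each of the 35 members with all 9 arrays (horizontal) and without control replicate 1 (vertical), for miR-376a*A (left) and miR-376a*G (right); the dashed line marks equal values. Green genes passed the test in both fits and orange genes only without the array; the 4 orange genes are ATP6V0C, CTSD, ATP6V1B2 and ATP6V1C1.

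The E-box CACGTG, the core of the element that TFEB binds, was searched in RefSeq promoter windows of GRCh38.p14, from 250 bases before to 50 after each gene's start. The letters read the same on both strands. Of the 35 measured members 25 had a window in the table, and 9 of the 25 (36%) held the core in at least 1 window, against 8.77% of 27305 genes. Of the windows themselves 23.7% of 38 and 7.26% of all 35116 held it. The core with GT before and AC after it, also the same on both strands, was found in ATP6V1G1 and MCOLN1 (8% of the 25, against 0.421% of all genes). Stretches of 30 bases around the core, capitals marking its 6 letters, are shown for RRAGC, the called member that held it. Stretches of 5 others from the pump, Ragulator and the lysosome are shown as examples. All those shown have A after the core. Most of those not shown, from ATP6V0B, CD63, LAMP1 and another site of MCOLN1, do not. The examples therefore overstate how far the flanking bases are shared.

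RRAGC, chr1:38859867-38859896, minus strand: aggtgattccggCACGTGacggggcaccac
LAMTOR4, chr7:100148892-100148921, plus strand: agcggctgcaagCACGTGaccggggcctga
ATP6V1G1, chr9:114587699-114587728, plus strand: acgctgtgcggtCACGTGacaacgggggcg
ATP6V0D1, chr16:67481199-67481228, minus strand: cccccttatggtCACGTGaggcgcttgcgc
MCOLN1, chr19:7522598-7522627, plus strand: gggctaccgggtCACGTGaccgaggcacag
CTSD, chr11:1763957-1763986, minus strand: gccggccgcgccCACGTGaccggtccgggt

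With the A form 1 of the 9 members holding the core passed the test against control, RRAGC, and 3 of the 16 with a window but no core, where 3.33% of all genes passed. Of the same 9, 0 passed with the G form in limma, and 2 of the 16 did, where 4.62% of all genes passed. Of the 9, 1, again RRAGC, had an unadjusted limma p under 0.05, as did 2232 of all 12505 genes. The medians were 0.00 and -0.04 for the 9 genes and -0.02 and 0.02 for the 16. The difference between holders and others was not tested. The windows of VMA21, LAMTOR3 and TMEM106B did not hold these 6 letters. A match of letters in a window is a description and shows no binding.

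Related genes outside the module were counted in 5 lists. Of 10 other V-ATPase subunits and assembly factors 0 passed in limma in any comparison with all arrays, and 0 had an unadjusted p under 0.05. Of all genes 3.33% passed with the A form, 4.62% with the G form and 2.63% between the forms. An unadjusted p under 0.05 was found for 1858, 2232 and 1336 of all 12505 genes, in that order. At such shares 10 genes are too few for 0 to set the list apart. Without control replicate 1, 1 of the 10 was lower with the A form and 2 with the G form. Of all genes 13.4% and 17.0% passed then. With all arrays, of 45 other hydrolases and lysosomal membrane proteins 1 was higher and 1 lower with each form against control. Between the forms 1 was higher with the A form. LIPA, the acid lipase that frees cholesterol from lipoproteins in lysosomes, was the gene that rose with both: its signal was 569, 648 and 703 in control cells, 1166, 1119 and 1090 with the A form and 1128, 1103 and 1193 with the G form. All treated arrays lay above all controls, with differences of 0.78 (adjusted p = 0.00120) and 0.83 (adjusted p = 0.000697) and of -0.05 between the forms. The endosomal protein LITAF fell with the A form (-0.37, adjusted p = 0.0469), and the protease CTSO fell with the G form (-0.44, adjusted p = 0.0457, or 0.0988 with the replicate number as a block) and was higher with the A form than with the G form (0.52, adjusted p = 0.0304).

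Of 17 genes of delivery to lysosomes, 3 were lower with the G form than in control, where 4.62% of all genes passed. All 3 encode subunits of AP-3, the adaptor that sorts membrane proteins to lysosomes. The list was chosen with earlier results of these data known, so 3 of 17 is no test of enrichment. Of the 3, AP3M1 passed under all 21 alternatives run, AP3B1 under 12 and AP3D1 under 10, and AP3D1 did not pass with the replicate number as a block (adjusted p = 0.0692). AP3M1 had signals of 141, 148 and 177 with the G form, 305, 318 and 283 with the A form, and 320, 361 and 454 in control cells, and the G-form arrays lay far below the rest. Its difference from control was -1.23 (SE 0.13, limma adjusted p = 0.000696), and it was 0.90 higher with the A form than with the G form (adjusted p = 0.00475). A second, dimmer probe set gave -0.30 (adjusted p = 0.328). AP3B1 (-0.57, adjusted p = 0.0298) and AP3D1 (-0.37, adjusted p = 0.0271) also fell with the G form, and AP3S1, the other AP-3 gene of the list, was at 0.09 (adjusted p = 0.632). With the A form AP3M1, AP3B1, AP3D1 and AP3S1 were at -0.33, -0.22, -0.03 and 0.06. The dimmer probe sets of AP3D1 gave -0.26 and -0.32 with the A form and -0.51 and -0.42 with the G form. Between the forms they gave 0.25 and 0.10. The dimmer probe set of AP3B1 gave -0.34 with the A form and -0.51 with the G form. Of the 17 delivery genes 0 passed in limma with the A form, and 2 had an unadjusted p under 0.05, against 1858 of all 12505 genes.

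Of 31 other genes of nutrient signalling to mTORC1, 0 passed in limma with the A form or between the forms. An unadjusted limma p under 0.05 was found for 7 and 2 of them, against 1858 and 1336 of all 12505 genes. With the G form 1 rose and 1 fell: AKT1S1, an mTORC1 inhibitor (0.59, adjusted p = 0.0446, or 0.0817 with the block), and FNIP2, a partner of the Rag regulator folliculin (-0.95, adjusted p = 0.0124). Of 26 TFEB family and autophagy genes, RAB7A, the GTPase of late endosomes, rose with the A form (0.48, adjusted p = 0.0199) and with the G form (0.51, adjusted p = 0.0141). The autophagy receptor SQSTM1 fell with the A form against control (-0.43, adjusted p = 0.00209) and was also lower than with the G form (-0.37, adjusted p = 0.00549). Unless a block is named, the values above come from fits without a replicate block, although same-numbered G-form and control arrays deviated together. With the replicate number as a block, 5 in place of 8 related genes passed for the G form against control, and 2.88% in place of 4.62% of all genes: CTSO (adjusted p = 0.0988), AP3D1 (0.0692) and AKT1S1 (0.0817) no longer did, while the 2 calls among the members, LAMTOR3 and TMEM106B, held. LIPA and AP3M1 passed under all 21 alternatives run. Both SQSTM1 calls passed under 18, and were lost with arrays centred on their medians, without normalization and with the mean of probe sets. The other related calls were lost without at least 1 of the arrays. The highest adjusted p over the alternatives was 0.137 for SQSTM1 against control and 0.310 between the forms, 0.278 for LITAF, 0.113 and 0.103 for RAB7A with the A and the G form, 0.138 for AP3B1, 0.163 for AP3D1, 0.0734 for FNIP2, and 0.163 for AKT1S1 and 0.202 for CTSO with the G form.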

How the data were processed

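Total RNA of 9 SW1783 cultures was hybridised to 9 arrays after Biotin-ULS labelling, per the labels' protocols. The authors deposited linear signal intensities for 54675 probe sets; the submitters' processing notes name GCOS 1.4.0.036, and how probes were summarised is not given in the sources used here. The mean of each array after trimming 2% at each end was 100.01 to 100.013, so the deposited intensities had been scaled to a common level, which hides a change shared by most transcripts.

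Intensities became log2(signal + 16) and were quantile normalized; a fold change on this scale understates that of dim genes. Gene names came from the platform's annotation, with symbols checked against RefSeq (GRCh38.p14): 41097 had 1 gene symbol, 1801 several and 11777 none here. Those with a mean under the 50th percentile (a log2 value of 5.17) were dropped, and the brightest represented a gene. The 3 groups were fitted together in limma 3.58.1 (R 4.3.3; lmFit, eBayes with trend), adjusted by Benjamini-Hochberg over 12505 genes at 0.05. The procedure was tested on simulated data with independent noise. These data held no outlying array and no deviations shared between arrays, so the test does not cover those features of the real arrays. Precision is limited by the number of arrays, 3 in each group. An exact p of 3 against 3 cannot be below 0.1, so smaller p-values here rest on the limma model.

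The members and lists were chosen with earlier results of these data known. All members are accounted for; full values are given for members past the test and, of each related list, for up to 4 called genes. Additional members, such as those called without control replicate 1, and AP3S1 were named after their values were seen.

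The labels number the replicates alike in all groups. Deviations from the group means correlated between same-numbered miR-376a*G and control arrays (r = 0.125 to 0.187, over the limit of 0.1 in all 3 pairs), so the numbers pair these arrays by the rule used here; no label names a culture or day in common. The fit reported has no block, and the fit with the replicate number as a block is given beside results whose call it changes. The correlations were -0.361 to 0.0315 for miR-376a*A and control and -0.0984 to -0.0313 for the 2 forms.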

Additional observations from a re-analysis of the deposited data

How the results depend on the processing

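The calls of VMA21 (both comparisons with miR-376a*A), LAMTOR3 and TMEM106B (each against control with both forms) kept their direction and passed under all 21 alternatives run. Of 35 members, 4, 2 and 2 passed for miR-376a*A against control, miR-376a*G against control and the 2 forms. Array weights gave 10, 5 and 4; the 6 arrays compared gave 4 between the forms and median centring gave 1. Leaving out 1 array gave 3 to 8, 2 to 2 and 1 to 4, the highest without control replicate 1. Of the related genes, 4, 8 and 3 passed in this order. Array weights gave 17, 23 and 14, the 6 arrays compared 2, 2 and 12, and median centring 2 and 4 against control. Averaging probe sets gave 2 with miR-376a*A against control, a filter at the 60th percentile 5 between the forms, and leaving out 1 array 2 to 15, 2 to 23 and 2 to 12. The cause was not tested. With the replicate number as a block 2 related genes passed for the A form and 5 for the G form against control; the calls of RAB7A (adjusted p = 0.0606) and LITAF (0.125) with miR-376a*A and of CTSO between the forms (0.0838) were lost, and no call of a member changed. The other alternatives were pseudocounts of 1 and 64, no normalization, no filter, each probe set tested and no intensity trend. Over all genes 417, 578 and 329 passed; array weights gave 2315, 2427 and 1656, the 6 arrays compared 156, 204 and 1292, leaving out the first control array 1670, 2124 and 1215, and the block 360 for the G form against control.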

Other observations

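On the deposited scale, 3 subunits of Ragulator and 1 of the pump shared their highest and lowest arrays within the control group and within the miR-376a*G group. Other members had the same order, among them ATP6V0C, ATP6V0E1, RRAGA, LAMP1 and CD63, so it was not particular to these 4 genes. The share of all genes with this order was not counted. LAMTOR2, LAMTOR4, LAMTOR5 and ATP6V1G1 were highest in control replicate 1 (signals of 663, 765, 1740 and 1922) and low in control replicate 3 (401, 491, 1229 and 1227) and miR-376a*G replicate 3 (391, 503, 1046 and 1216). The spread within the control group was larger than the differences between group means for these 4 genes. After normalization LAMTOR5 was highest in control replicate 2 instead. Over all members, miR-376a*G replicate 3 was the highest or lowest of the 9 arrays for 13 of 35 (37.1%), against 21.3% of all genes.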
